A study of Mus musculus with 10 samples.

Results

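The 37 genes described here encode the steps by which a heart muscle cell takes up glucose, breaks it down to pyruvate and lactate and stores it as glycogen. They were taken from the deposited count table by gene symbol, and 37 of 37 names were found among its 38355 genes. The set holds 5 glucose transporters, 6 enzymes from hexokinase to phosphofructokinase, 3 PFKFB regulators, 10 enzymes from aldolase to pyruvate kinase, 4 genes of lactate handling and 9 genes of glycogen metabolism. The values below give which isoform gene of each step was most abundant in adult cardiomyocytes, and whether the genes differed between Epac1-PLN transgenic and wildtype cells. In 10 of 10 isoform families the same gene led in all 10 libraries, and it was the form known from striated muscle or heart in most of them (Slc2a4, Hk2, Pfkm, Pfkfb2, Aldoa, Pgam2, Eno3, Ldhb, Slc16a1 and Pygm). None of the 36 genes that could be tested passed the genotype test. Among 11 tested isoform pairs, the glycogen phosphorylases Pygb and Pygm were the pair whose ratio did not overlap between the genotypes. The difference in that ratio did not pass the adjusted threshold either (exact permutation test, adjusted p = 0.0873). The pairs were chosen with earlier results of these data known. Of all tested genes taken singly, 2.75% had levels that did not overlap between the genotypes.

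Epac1-PLN is a genetically encoded fluorescence (FRET) biosensor whose name joins those of Epac1, which binds cAMP, and phospholamban, and the series title gives its expression as cardiac. The groups were cardiomyocytes of 5 Epac1-PLN transgenic mice and of 5 wildtype mice, both adult, untreated and of the FVB/N strain, isolated by Langendorff perfusion. Females were replicates 2, 3 and 4 among the Epac1-PLN libraries and replicates 3, 4 and 5 among the wildtype libraries, and the other 2 of each group were males. The promoter that drives the transgene, the number of founder lines and the ages in weeks are not stated in the sources.

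Glucose enters a cardiomyocyte through facilitative transporters, of which GLUT4 moves to the cell surface in response to insulin and contraction. Hexokinase traps it as glucose 6-phosphate, phosphofructokinase commits it to glycolysis, and the later enzymes carry it to pyruvate, which lactate dehydrogenase interconverts with lactate. Glycogen synthase and the branching enzyme build a glucose store that phosphorylase, switched on by phosphorylase kinase downstream of cAMP, breaks down. The adult heart draws most of its energy from fatty acids and also oxidises glucose and lactate, and many glycolytic enzymes exist as a muscle form and a form found more widely.

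Library totals were 10632224 to 15959196 counts in Epac1-PLN and 13266303 to 20983754 counts in wildtype, and the 37 genes together took 1.78% to 2.01% of the counts of a library. Levels below are CPM, counts scaled to a common library size, with TMM factors, whose scaling corrects for differences in library composition, and levels compared between genes are CPM per kilobase of exon. Rapgef3, the gene of Epac1 and so a check of the genotype labels, was at 1241 to 1741 CPM in Epac1-PLN and at 10.4 to 15.9 CPM in wildtype. The summed level of 11 adult cardiomyocyte markers was 119600 to 137500 CPM in Epac1-PLN and 120100 to 146900 CPM in wildtype. Summed endothelial markers (12 genes) reached 1359 CPM in Epac1-PLN library 4, against at most 915 CPM in the other Epac1-PLN libraries and 726 to 1239 CPM in wildtype. That library also had the highest sums of its group for macrophage, fast skeletal muscle and atrial markers (85.8, 89.2 and 74.8 CPM). The same held for smooth muscle and pericyte, Schwann and neuronal, and adipocyte markers (1561, 21.2 and 1.13 CPM). Epac1-PLN library 1 was highest for fibroblast and erythroid markers, and library 3 for cardiomyocyte markers. The part of these cells in the values below was not tested, and several values below are also given without library 4. In such bulk samples fewer cells of a type and less RNA per cell cannot be told apart.

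Within the set, levels per kilobase spanned from the most abundant transcripts of the cell to near absence. Eno3, the muscle enolase, ranked 28 of 21686 genes at 1305 ± 220 CPM per kilobase in Epac1-PLN and 1325 ± 157 in wildtype (SD, n = 5 each). Aldoa, the muscle aldolase, ranked 34, Pgam2, the muscle phosphoglycerate mutase, ranked 38, and Ldhb, the heart lactate dehydrogenase subunit, ranked 40. Pygm, muscle glycogen phosphorylase, and Pfkm, muscle phosphofructokinase, followed at ranks 88 and 100. At the other end, Aldoc, the brain aldolase, had 22 counts over all 10 libraries and was the gene left untested. Slc2a3 (GLUT3, the neuronal transporter) and Slc16a3 (MCT4, a lactate exporter of glycolytic muscle) were also scarce, at 15 to 30 and 13 to 51 counts per library.

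**Figure D1:**
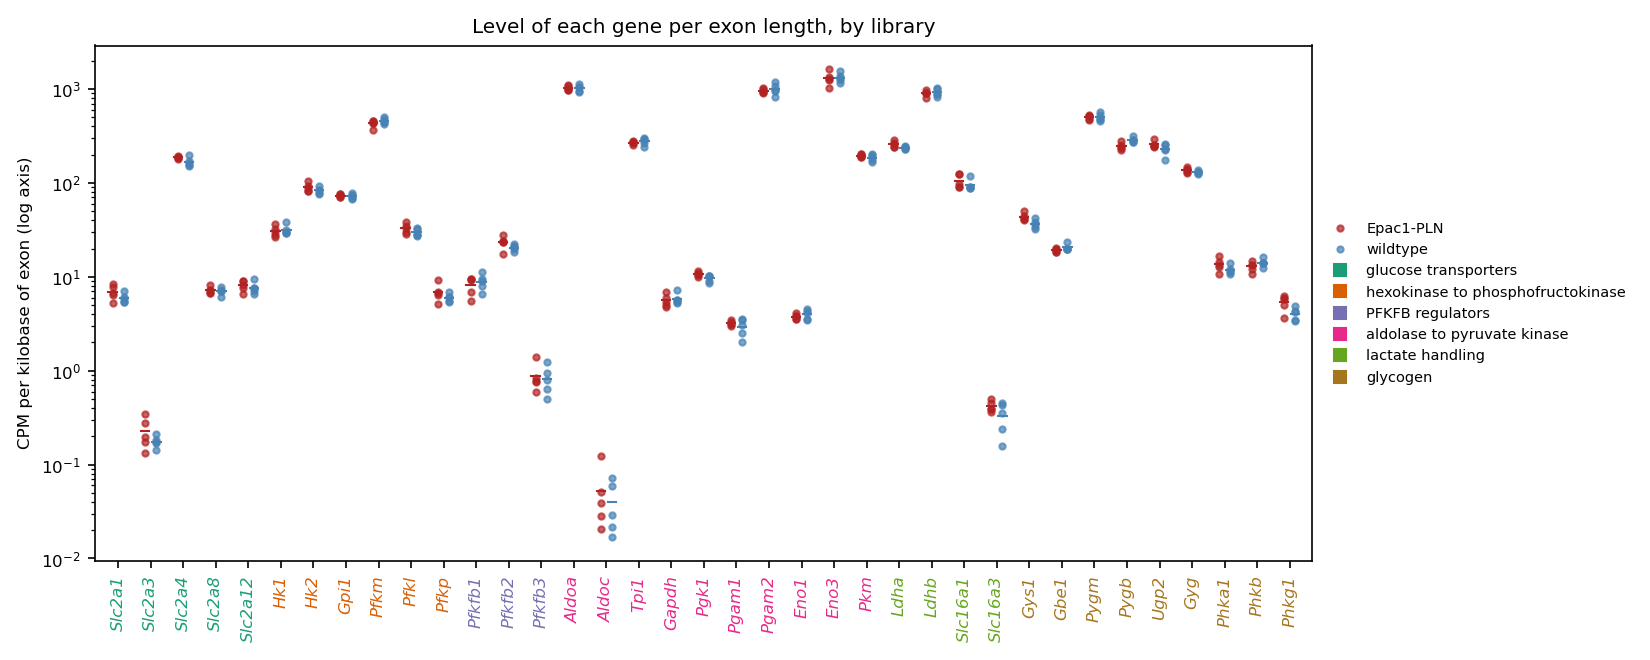
CPM per kilobase of exon (log axis) of each of the 37 genes in each library, with Epac1-PLN points left of wildtype points and short lines for group means. Gene names are coloured by role. Eno3, Aldoa, Pgam2 and Ldhb lie highest, Aldoc lowest, and the 2 genotypes overlap for every gene shown.

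Gapdh, Pgk1, Eno1 and Pgam1 stood far below most of their neighbours in the pathway, and they were also the 4 genes with the largest share of coding sequence in common with other genes. Gapdh, the glyceraldehyde 3-phosphate dehydrogenase and a common reference transcript, was at 5.60 ± 0.845 CPM per kilobase in Epac1-PLN and 5.86 ± 0.836 in wildtype and ranked 5114. Pgk1, the phosphoglycerate kinase of somatic cells, ranked 3476. Eno1 and Pgam1, the widely expressed enolase and mutase, ranked 6296 and 7086. Tpi1, the triose phosphate isomerase that acts just before Gapdh, ranked 156. The coding sequence of each gene (longest coding transcript, GENCODE M21, GRCm38) was cut into all windows of 50 bases, and each window was searched for exactly in the annotated transcripts of other genes. The share of windows found elsewhere was 100% for Pgk1 (5 other genes, 5 of them pseudogenes) and 100% for Pgam1 (4, all 4 pseudogenes). It was 94.2% for Gapdh (221 other genes, 212 of them pseudogenes) and 83.3% for Eno1 (9, of them 8 pseudogenes). It was 0% for 22 of the 37 genes, Eno3, Pgam2, Pfkm, Slc2a4 and Hk2 among them.

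High sharing and a low level did not always go together. Pkm, pyruvate kinase, shared 52.9% of its windows and ranked 213, Ldhb shared 35.6%, Ldha 28.4%, Gpi1 (glucose 6-phosphate isomerase) 40.9%, Aldoa 16.8% and Tpi1 13.7%. Pfkfb2 shared 65.8% with an overlapping gene on its own strand, Gm29427. Over whole transcripts rather than coding sequence, the shares were 53.9% for Pgk1, 36.2% for Pgam1, 26.0% for Eno1 and 25.1% for Gapdh. On that measure Eno1 and Gapdh lay close to Pkm (25.8%) and Ldhb (21.0%), which ranked 213 and 40. Over all 10 libraries, the genes sharing windows of the whole transcript had 3 counts together for Pgk1, 5 for Pgam1 and 0 for Pkm. For Eno1, Gapdh and Ldhb these counts were 33259, 42894 and 13491. How reads that fit several places were counted is not stated in the sources, and its part in these levels was not tested. Levels of Gapdh, Pgk1, Eno1 and Pgam1 are therefore uncertain, and so are their ranks against other genes. The same limit holds, at smaller shares, for the other genes with shared windows, Pfkfb2 and Ldhb among them.

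**Figure D2:**
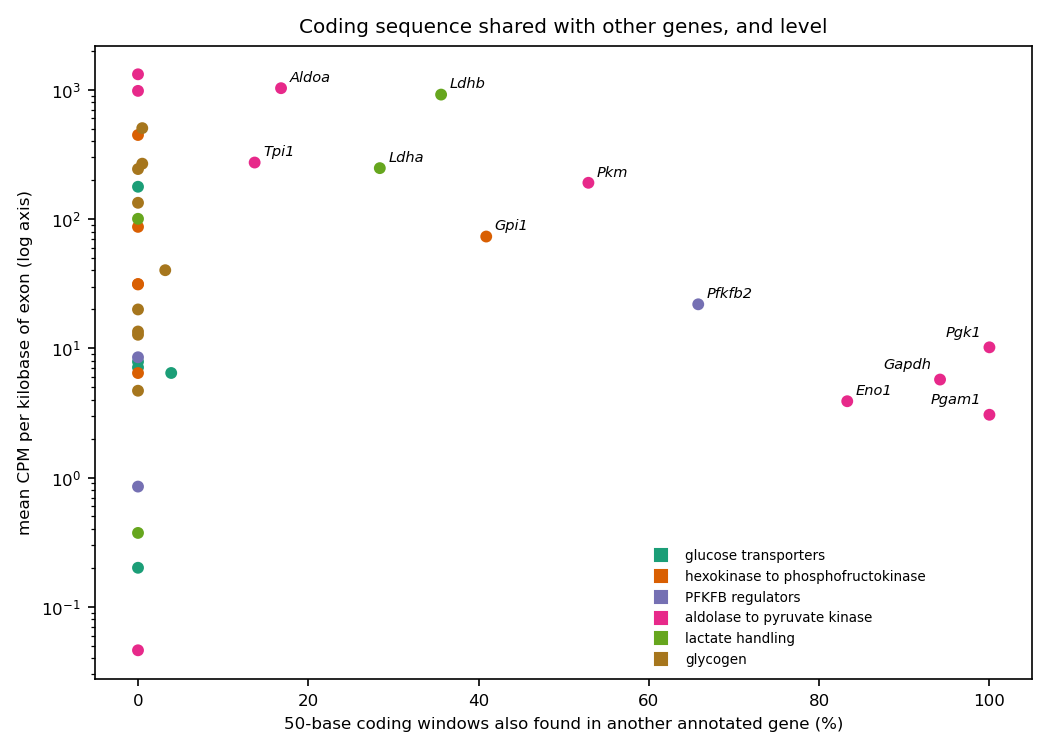
Mean CPM per kilobase of exon over the 10 libraries (log axis) against the percentage of 50-base coding windows that also occur in another annotated gene, 1 point per gene, coloured by role. Pgk1, Pgam1, Gapdh and Eno1, with 83.3% to 100% of windows shared, lie between 3.06 and 10.2 CPM per kilobase, while genes at 0% span the whole range of levels.

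The windows below show this for the 2 mutase genes and the 2 enolase genes of the set. They are read from GENCODE M21 transcripts on GRCm38, written 5′ to 3′ on the strand of the gene, and capitals mark the bases that differ between the 2 paralogs. The Pgam1 window lies at chr19:41915608-41915657 (+) and occurs in 2 other genes, while the matching Pgam2 window lies at chr11:5803497-5803546 (-) and occurs in 0. They differ at 14 of 50 bases.
Pgam1: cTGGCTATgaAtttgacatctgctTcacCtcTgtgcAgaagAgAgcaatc
Pgam2: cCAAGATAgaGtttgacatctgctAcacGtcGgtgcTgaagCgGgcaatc

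The Eno1 window lies at chr4:150246629-150246678 (+) and occurs in 2 other genes, and the Eno3 window lies at chr11:70661056-70661105 (+) and occurs in 0. They differ at 10 of 50 bases.
Eno1: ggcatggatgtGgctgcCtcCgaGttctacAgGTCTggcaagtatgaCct
Eno3: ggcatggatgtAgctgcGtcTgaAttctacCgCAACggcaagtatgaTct

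The Gapdh window with the most copies lies at chr6:125162898-125162947 (-) and occurs unchanged in 84 other annotated genes.
Gapdh: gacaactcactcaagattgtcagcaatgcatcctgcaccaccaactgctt

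Glucose transporters were led by Slc2a4, which encodes GLUT4 (ENSMUSG00000018566, chr11:69942539-69948188, - strand, mm10). Per kilobase it made up 89.3 ± 0.579% of the 5 transporters in Epac1-PLN and 88.9 ± 1.17% in wildtype. Slc2a12 (GLUT12) came next, and Slc2a4 exceeded it 23.5 ± 2.92-fold in Epac1-PLN and 22.4 ± 4.94-fold in wildtype. The next 3 genes were close. Slc2a12 held 3.85 ± 0.453% in Epac1-PLN and 4.12 ± 0.830% in wildtype. Slc2a8 (GLUT8, an intracellular transporter) held 3.43 ± 0.285% in Epac1-PLN and 3.73 ± 0.195% in wildtype, and Slc2a1 (GLUT1, the basal transporter) 3.30 ± 0.612% in Epac1-PLN and 3.18 ± 0.418% in wildtype. The gaps among these 3 genes were not tested. Slc2a3 was far below them.

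Slc2a4 was at 650, 644, 676, 630 and 659 CPM in Epac1-PLN libraries 1 to 5, against 592, 530, 568, 540 and 685 CPM in wildtype libraries 1 to 5. Wildtype library 5 was the highest of all 10 and the other 4 wildtype libraries lay below every Epac1-PLN library. Its log2 fold change, Epac1-PLN over wildtype, was 0.16 ± 0.0731 (SE; adjusted p = 0.396, edgeR). Slc2a1 was at 23.7, 22.3, 27.5, 29.4 and 18.3 CPM in Epac1-PLN and 18.7, 20.4, 24.7, 19.1 and 21.6 CPM in wildtype, a difference of 0.21 ± 0.109 on the log2 scale (adjusted p = 0.476). The groups overlapped, and the highest value came from Epac1-PLN library 4, the library with the highest endothelial marker sum. Without that library the log2 fold change was 0.15. The other 3 transporters overlapped between the groups. Slc2a8 was at 21.4 to 26.1 CPM in Epac1-PLN and 19.4 to 24.8 CPM in wildtype, Slc2a12 at 27.5 to 38.5 CPM in Epac1-PLN and 27.7 to 40.1 CPM in wildtype, and Slc2a3 at 0.964 to 2.50 CPM in Epac1-PLN and 1.05 to 1.54 CPM in wildtype. Exons of Slc2a1 overlap the antisense gene Gm12868, and those of Slc2a12 overlap Tbpl1. All 5 transporters had a log2 fold change above 0 (median 0.16) and 0 of them was called. With females alone those of Slc2a8 and Slc2a12 were -0.08 and -0.08.

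Hk2, the insulin-regulated muscle hexokinase, made up 74.6 ± 3.42% of the Hk1 and Hk2 level per kilobase in Epac1-PLN and 72.5 ± 2.29% in wildtype. It was at 492, 532, 631, 484 and 556 CPM in Epac1-PLN libraries 1 to 5 and at 471, 458, 508, 506 and 548 CPM in wildtype. The groups overlapped (log2 fold change 0.12 ± 0.0764; adjusted p = 0.6), and the value was 0.06 without Epac1-PLN library 3, the highest. The share depended on the exon length used: over the longest transcript of each gene it was 61.6 ± 4.27% in Epac1-PLN and 58.9 ± 2.75% in wildtype, with Hk2 still ahead in 10 of 10 libraries. Hk1, the form of brain and of the developing heart, was at 227 to 313 CPM in Epac1-PLN and 248 to 330 CPM in wildtype, and its exons overlap the antisense gene Hk1os. Gpi1 was at 456 to 487 CPM in Epac1-PLN and 440 to 507 CPM in wildtype, and the log2 fold change was 0.01. Exons of Gpi1 overlap the antisense gene Gm26762.

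Pfkm made up 91.5 ± 1.76% of phosphofructokinase in Epac1-PLN and 92.8 ± 0.635% in wildtype. It exceeded Pfkl, the liver form, 13.4 ± 2.50-fold in Epac1-PLN and 15.5 ± 1.36-fold in wildtype. It was at 1526, 1441, 1465, 1235 and 1543 CPM in Epac1-PLN libraries 1 to 5 and at 1599, 1421, 1488, 1505 and 1677 CPM in wildtype. Epac1-PLN library 4 was the lowest of the 10, and the other values interleave. Pfkl was at 192 to 256 CPM in Epac1-PLN and 182 to 223 CPM in wildtype. That library was also the highest for Pfkp, the platelet form, at 123 CPM, against 68.5 CPM in the lowest Epac1-PLN library and 72.9 to 91.9 CPM in wildtype. The Pfkp to Pfkm count ratio differed by 0.27 on the log2 scale between Epac1-PLN and wildtype, less than its SD of 0.42 in Epac1-PLN, and by 0.11 without Epac1-PLN library 4. Exons of Pfkm overlap Gm26513 on its own strand and Senp1 on the other, and those of Pfkp overlap Pitrm1.

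The PFKFB enzymes make and break fructose 2,6-bisphosphate, the strongest activator of phosphofructokinase. Pfkfb2, the heart form, made up 72.0 ± 4.10% of Pfkfb1, Pfkfb2 and Pfkfb3 per kilobase in Epac1-PLN and 67.9 ± 4.63% in wildtype. Pfkfb4, outside the set and this share, was at 3.06 ± 1.18 CPM in Epac1-PLN and 3.21 ± 0.290 CPM in wildtype. Pfkfb2 was at 172, 169, 203, 127 and 173 CPM in Epac1-PLN libraries 1 to 5 and at 142, 154, 152, 162 and 133 CPM in wildtype. Epac1-PLN libraries 1, 2, 3 and 5 lay above every wildtype library, and library 4 lay below them all (log2 fold change 0.18 ± 0.106; adjusted p = 0.537). The log2 fold change of Pfkfb2 was 0.27 without library 4 and 0.09 without Epac1-PLN library 3, the highest. Pfkfb2 exons overlap Gm29427 and Yod1, and those of Pfkfb1 overlap the antisense gene Apex2. Pfkfb1, the liver and skeletal muscle form, was at 22.3 to 38.5 CPM in Epac1-PLN and 26.5 to 45.6 CPM in wildtype. Pfkfb3, the inducible form, was at 4.50 to 10.7 CPM in Epac1-PLN and 3.75 to 9.44 CPM in wildtype.

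From aldolase to pyruvate kinase, 9 genes were tested and their median log2 fold change was -0.03, with 4 above and 5 below 0. Aldoa was at 2855, 2886, 3206, 3152 and 2859 CPM in Epac1-PLN libraries 1 to 5 and at 3098, 2798, 3083, 2680 and 3267 CPM in wildtype. Its log2 fold change was 0.00 (95% interval -0.15 to 0.15). The values of both groups fill the same range. Aldoa exons overlap Fam57b, those of Tpi1 overlap Spsb2, those of Gapdh overlap Iffo1 and those of Pkm overlap Gm49759.

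Pgam2 was at 832, 788, 785, 768 and 854 CPM in Epac1-PLN libraries 1 to 5 and at 988, 899, 818, 696 and 795 CPM in wildtype. Wildtype libraries held both the highest and the lowest value. Eno3 was at 2851, 2219, 2312, 1782 and 2180 CPM in Epac1-PLN and at 2721, 2160, 2266, 1996 and 2376 CPM in wildtype. In both groups replicate 1, a male, was the highest and replicate 4, a female, the lowest. Pgk1 was at 25.6, 24.6, 22.2, 23.7 and 24.1 CPM in Epac1-PLN and 22.7, 22.7, 22.6, 19.5 and 20.4 CPM in wildtype, a difference of 0.16 ± 0.0737 on the log2 scale (adjusted p = 0.421). All Epac1-PLN libraries but library 3 exceeded the wildtype libraries, at 261 to 477 counts per library for a gene whose coding windows are all shared with pseudogenes. The 5 other genes of this stretch overlapped between the groups. Gapdh was at 19.5 to 28.3 CPM in Epac1-PLN and 21.7 to 30.3 CPM in wildtype, and Eno1 at 19.1 to 22.1 CPM in Epac1-PLN and 18.6 to 24.6 CPM in wildtype. Pgam1 was at 5.93 to 6.80 CPM in Epac1-PLN and 3.99 to 7.04 CPM in wildtype. Tpi1 was at 705 to 777 CPM in Epac1-PLN and 673 to 829 CPM in wildtype, and Pkm at 935 to 1021 CPM in Epac1-PLN and 827 to 1027 CPM in wildtype.

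For lactate handling, Ldhb made up 77.8 ± 2.21% of lactate dehydrogenase per kilobase in Epac1-PLN and 79.6 ± 1.05% in wildtype. It was at 1524, 1442, 1416, 1273 and 1433 CPM in Epac1-PLN libraries 1 to 5 and at 1575, 1401, 1405, 1301 and 1613 CPM in wildtype. Ldha, the muscle subunit, was at 873, 794, 850, 947 and 799 CPM in Epac1-PLN and at 797, 753, 796, 760 and 817 CPM in wildtype, a difference of 0.12 ± 0.064 on the log2 scale (adjusted p = 0.489). Library 4 of Epac1-PLN was lowest for Ldhb and highest for Ldha, and the Ldha difference was 0.08 without it. The log2 count ratio of Ldha to Ldhb was -0.73 ± 0.178 in Epac1-PLN and -0.89 ± 0.0935 in wildtype (exact permutation p = 0.0952, adjusted 0.436). Slc16a1, which encodes the lactate and pyruvate carrier MCT1, was at 404, 397, 545, 427 and 546 CPM in Epac1-PLN and at 392, 402, 405, 528 and 390 CPM in wildtype. High libraries occurred in both groups (log2 fold change 0.13 ± 0.119). The value was 0.04 without Epac1-PLN library 5, 0.06 without Epac1-PLN library 3 and 0.23 without wildtype library 4, the 3 high libraries. Slc16a3 was at 1.95 to 2.63 CPM in Epac1-PLN and 0.842 to 2.43 CPM in wildtype.

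Glycogen genes held the 3 members with the smallest genotype p-values, and none passed the adjusted threshold. Gys1, muscle glycogen synthase (ENSMUSG00000003865, chr7:45434844-45456619, + strand), was at 192, 199, 214, 238 and 203 CPM in Epac1-PLN libraries 1 to 5 and at 177, 156, 182, 161 and 201 CPM in wildtype. Wildtype library 5 exceeded 2 of the Epac1-PLN libraries and the groups otherwise separate. The log2 fold change was 0.25 ± 0.0765, a 1.19-fold level (95% interval 1.06 to 1.34) (unadjusted p = 0.0056, adjusted p = 0.18). It was 0.21 without Epac1-PLN library 4, and 0.21 to 0.30 when any 1 library was left out. Gys1 exons overlap those of Ruvbl2 on the other strand.

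Pygb, the brain form of glycogen phosphorylase (ENSMUSG00000033059, chr2:150786735-150831758, + strand), was at 1342, 1147, 1161, 1077 and 1210 CPM in Epac1-PLN libraries 1 to 5 and at 1391, 1311, 1308, 1395 and 1532 CPM in wildtype. Epac1-PLN libraries 2 to 5 lay below every wildtype library, and library 1 lay inside the wildtype range. The log2 fold change was -0.23 ± 0.0717, a 0.854-fold level (95% interval 0.767 to 0.951) (unadjusted p = 0.00749, adjusted p = 0.199). Pygm, the muscle form (ENSMUSG00000032648, chr19:6384399-6398459, + strand), was at 1679, 1705, 1553, 1509 and 1658 CPM in Epac1-PLN and at 1724, 1483, 1549, 1539 and 1823 CPM in wildtype, and its log2 fold change was 0.00 (95% interval -0.16 to 0.15). The 2 genes share 0.5% of their coding windows.

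Phkg1, the catalytic subunit of phosphorylase kinase in muscle, was at 40.2, 39.1, 32.5, 23.5 and 38.0 CPM in Epac1-PLN libraries 1 to 5 and at 27.8, 22.2, 22.4, 31.9 and 27.8 CPM in wildtype. All Epac1-PLN libraries but library 4 lay above the wildtype libraries (log2 fold change 0.38 ± 0.15; adjusted p = 0.315), and the log2 fold change was 0.50 without that library. Phkg1 exons overlap those of Sumf2 on the other strand. Phka1, the muscle regulatory subunit, was at 66.9, 90.4, 83.5, 104 and 79.9 CPM in Epac1-PLN and at 71.0, 66.6, 75.9, 71.7 and 86.9 CPM in wildtype, a difference of 0.18 ± 0.0841 on the log2 scale (adjusted p = 0.402). Here library 4 was the highest of all 10, and the log2 fold change without it was 0.13. Phkb, the other regulatory subunit, was at 80.0 to 109 CPM in Epac1-PLN and 92.8 to 120 CPM in wildtype. The remaining glycogen genes overlapped likewise. Gbe1, the branching enzyme, was at 98.2 to 110 CPM in Epac1-PLN and 105 to 126 CPM in wildtype. Ugp2, which makes UDP-glucose, was at 737 to 911 CPM in Epac1-PLN and 543 to 806 CPM in wildtype. Gyg, the glycogenin that primes the particle, was at 301 to 347 CPM in Epac1-PLN and 294 to 323 CPM in wildtype. Ugp2 exons overlap Gm12043.

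**Figure D3:**
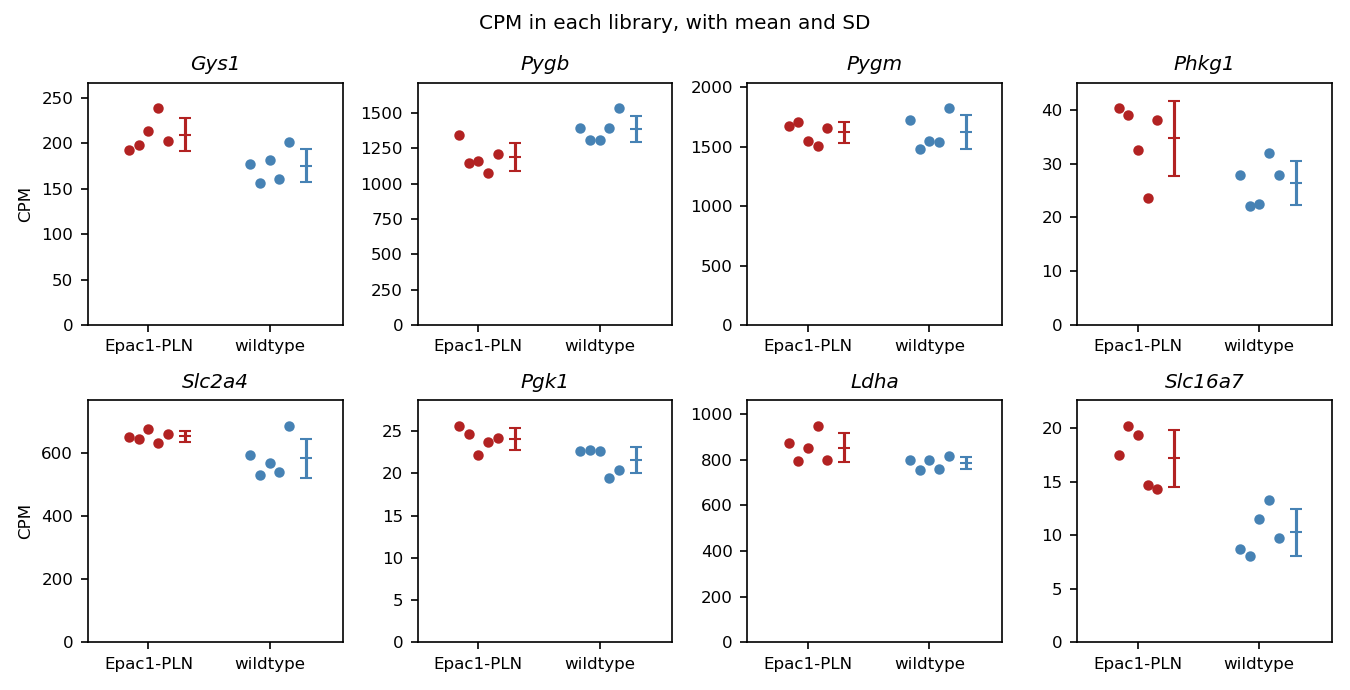
CPM in each of the 5 Epac1-PLN (left) and 5 wildtype (right) libraries, with mean and SD beside the points, for 7 of the 37 genes and for Slc16a7, a lactate carrier outside the set. Pygb and Gys1 overlap in 1 or 2 libraries of a group, Pygm overlaps throughout, and all 5 Epac1-PLN values of Slc16a7 (14.3 to 20.2 CPM) lie above all wildtype values (8.05 to 13.3 CPM).

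Over the whole set, 0 of the 36 tested genes were called between the genotypes by edgeR at an adjusted p under 0.05, where 0.641% of the 12629 tested genes were called. DESeq2 and limma-voom also called 0 of the 36, with 2.1% and 0.578% of all genes called. At an unadjusted p under 0.05 there were 5 genes, a share near the 12.2% of all tested genes at that threshold. Gys1, Phka1, Phkg1 and Slc2a4 were the 4 higher in Epac1-PLN (6.77% of all genes) and Pygb the 1 lower (5.4% of all genes). Non-overlapping groups occurred in 0 of the 36, against 2.75% of all tested genes. The median log2 fold change was 0.07 with 23 genes above and 13 below 0, beside a median of 0.00 and 51.0% above 0 over all tested genes. The smallest adjusted p was 0.18. Taken gene by gene, the 95% interval of the log2 fold change lay within ±0.5 for 32 of 36 genes and within ±1 for all 36. These intervals do not hold jointly over the 36 genes. The lowest bound was -0.53, for Pfkfb1, and the highest was 0.92, for Slc16a3, a gene with few counts.

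**Figure D4:**
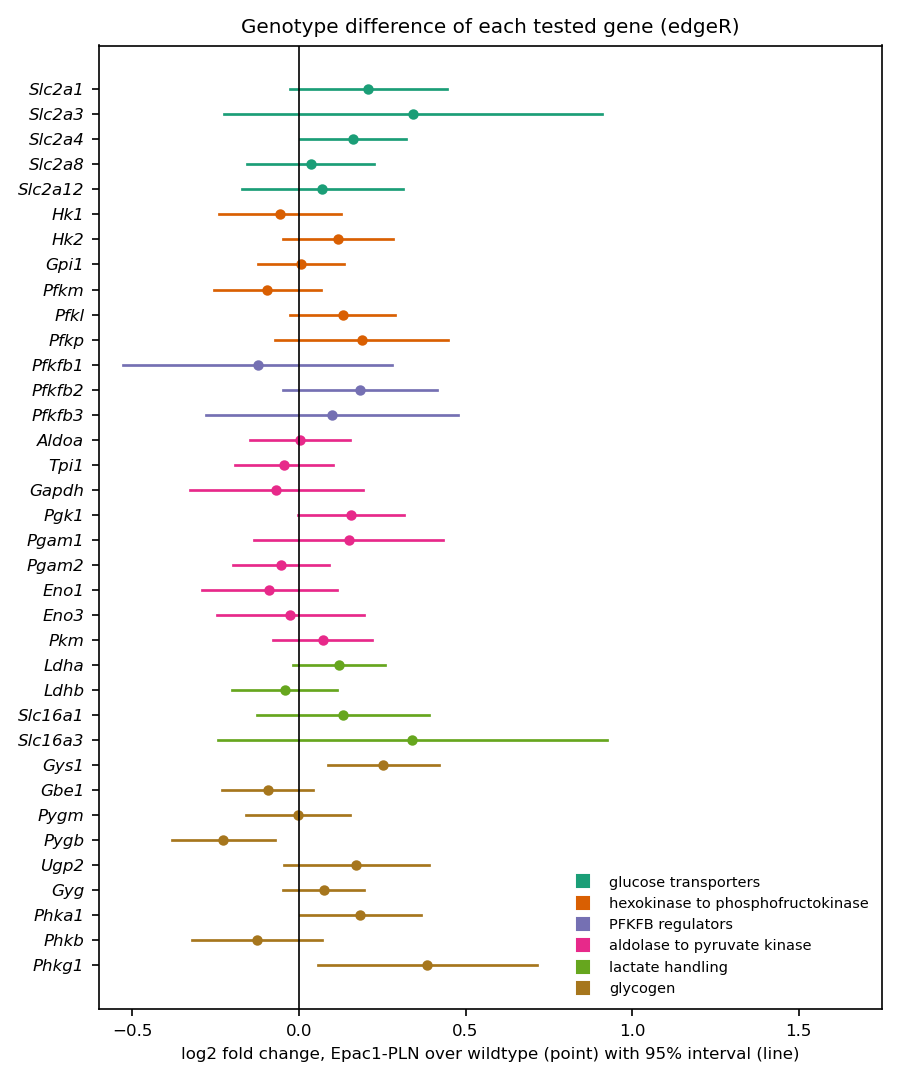
Log2 fold change, Epac1-PLN over wildtype, of the 36 tested genes, in pathway order and coloured by role. The 95% intervals were derived from the edgeR F statistic. Most intervals cross 0, those of Gys1, Phkg1, Slc2a4 and Phka1 lie above 0 and that of Pygb below 0 before adjustment, and the low-count genes Slc2a3 and Slc16a3 have the widest intervals.

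The ratio of 2 isoform genes within a library does not depend on how libraries are scaled. For 11 pairs with enough counts the log2 count ratio was compared between genotypes by an exact 2-sided permutation test of the genotype labels, whose smallest possible p is 0.00794. The pair Aldoc and Aldoa was left out for its low counts. The log2 ratio of Pygb to Pygm was -0.45 ± 0.0915 in Epac1-PLN and -0.22 ± 0.066 in wildtype, ranging from -0.57 to -0.32 in Epac1-PLN and from -0.31 to -0.14 in wildtype. These groups did not overlap, and the difference of -0.23 had the smallest possible p of 0.00794, which over 11 pairs adjusts to 0.0873. A single pair at the smallest possible p cannot pass 0.05 over 11 pairs in this design. The pairs were also chosen with earlier results of these data known, so these p-values are descriptive. The difference was -0.28 in females alone and -0.26 to -0.20 when any 1 library was left out. As levels per kilobase, Pygm made up 67.1 ± 1.40% of the 2 phosphorylases in Epac1-PLN and 63.6 ± 1.06% in wildtype. The other 10 tested pairs overlapped between the genotypes, with unadjusted p of 0.0952 or more.

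**Figure D5:**
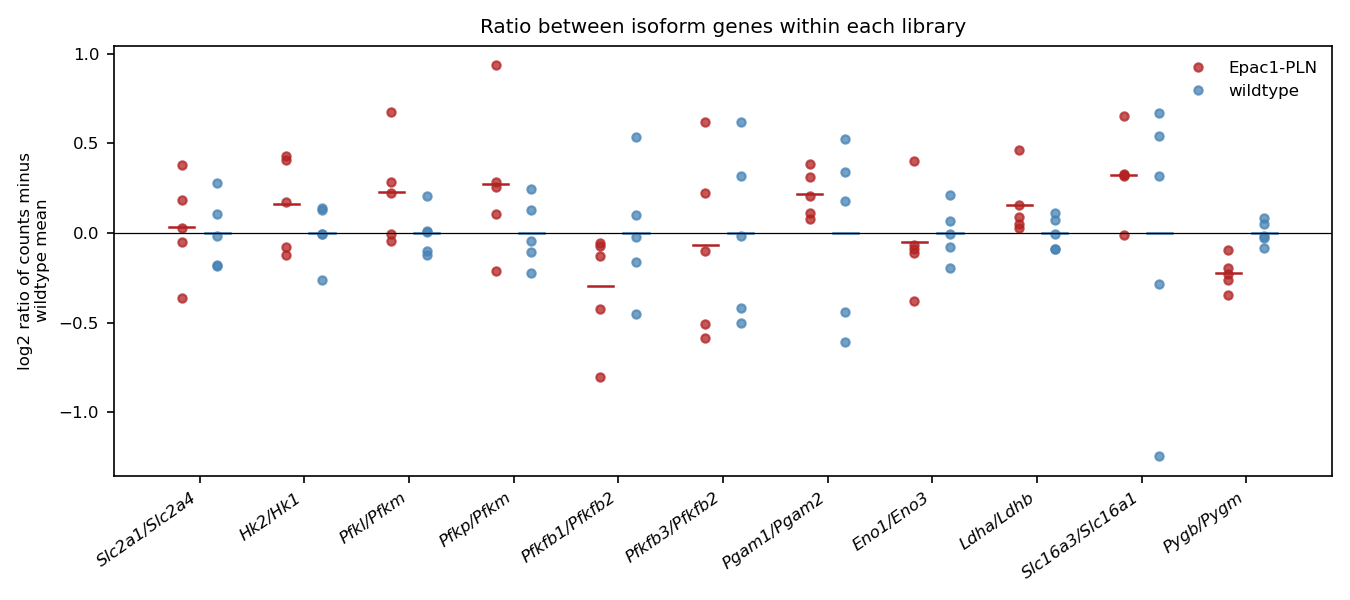
Log2 ratio of counts of each of 11 isoform gene pairs in each library, minus the wildtype mean of the pair, with Epac1-PLN points left of wildtype points and lines for group means. The Pygb/Pygm points of the 2 groups do not overlap, and those of the other 10 pairs do.

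The leading isoform of each family was the same in both genotypes. Eno3 exceeded Eno1 347 ± 64.3-fold per kilobase in Epac1-PLN and 332 ± 34.9-fold in wildtype, and Pgam2 exceeded Pgam1 300.1 ± 27.4-fold in Epac1-PLN and 365 ± 128-fold in wildtype. Both ratios set a gene with 0% shared windows over a gene with 83.3% or more, so their size is uncertain. The smallest leads were those of Pygm over Pygb (1.65 to 2.22-fold over the 10 libraries), Pfkfb2 over Pfkfb1 (1.62 to 4.09-fold), Hk2 over Hk1 (2.20 to 3.56-fold) and Ldhb over Ldha (2.83 to 4.17-fold). The leading gene was also the same with the longest transcript as the length and with no length correction, in each of the 10 families.

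Sex was a second factor of the design. By edgeR 0 of the 36 genes were called between 6 females and 4 males, where 0.34% of all tested genes were called. At an unadjusted p under 0.05 there were 6, beside 10.4% of all genes. Hk1, Pfkl, Pgam1 and Phka1 were the 4 higher in females (6.07% of all genes), and Pfkfb3 and Pgam2 the 2 lower (4.34% of all genes). Pfkfb3 was at 3.75 to 6.0 CPM in females and 6.40 to 10.7 CPM in males, and these ranges did not overlap. Its log2 difference, female over male, was -0.71 ± 0.175 (adjusted p = 0.153, edgeR), and DESeq2 called it (adjusted p = 0.0265), with 1.26% of all genes called. Limma-voom called 0 of the 36 and 0.325% of all genes. Pgam2 was at 696 to 818 CPM in females and 832 to 988 CPM in males, again without overlap (log2 difference -0.20 ± 0.0677; adjusted p = 0.323). These were the 2 of the 36 genes whose ranges did not overlap between the sexes, beside 2.08% of all tested genes. The log2 count ratio of Pgam1 to Pgam2 was -6.87 ± 0.126 in females and -7.41 ± 0.363 in males, at the smallest possible exact permutation p of 0.00476 (n = 6 and 4), adjusted to 0.0524 over the 11 pairs. Pgam1 had 57 to 129 counts per library, and all its coding windows are shared with pseudogenes. The ratios Pfkfb3/Pfkfb2 and Eno1/Eno3 had exact permutation p of 0.019 and 0.0429 between the sexes, adjusted to 0.105 and 0.157. The genotype difference was also compared between the sexes by an interaction term: 0 of 36 genes and 0 of 12629 genes were called by edgeR, 0 of the 36 at an unadjusted p under 0.05 (3.75% of all genes), and DESeq2 and limma-voom called 0 of the 36 (0.00792% and 0% of all genes).

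Other genes of the same pathways were read from a list of 101 genes in the table, of which 83 were tested. Of these, 1 was called higher and 0 lower in Epac1-PLN (1.2% of 83, beside 0.641% of all tested genes), with 44 above and 39 below 0 and a median log2 fold change of 0.01. The called gene was Slc16a7, which encodes the monocarboxylate carrier MCT2. It was at 17.5, 20.2, 19.3, 14.7 and 14.3 CPM in Epac1-PLN libraries 1 to 5 and at 8.71, 8.05, 11.6, 13.3 and 9.76 CPM in wildtype, and every Epac1-PLN library exceeded every wildtype library. Its log2 fold change was 0.75 ± 0.126 (adjusted p = 0.0197, edgeR). The call was lost in 8 of 19 alternatives, with adjusted p up to 0.391 in females alone, 0.102 with the replicate number as a block and 0.0552 with genotype alone in the model. It was also lost without wildtype library 1, 2 or 5 and without Epac1-PLN library 1 or 3, with log2 fold changes of 0.68 to 0.74. Beside it, the lactate carrier Slc16a1 of the set had a log2 fold change of 0.13 and was not called.

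Among the pathway genes short of the threshold, 5 were chosen after their values were seen. Gpd1, the cytosolic glycerol 3-phosphate dehydrogenase, was at 58.8 ± 6.93 CPM in Epac1-PLN and 76.9 ± 8.86 CPM in wildtype, a difference of -0.39 ± 0.0916 on the log2 scale (adjusted p = 0.0784). The 3 tested genes of the glycerol 3-phosphate list all had values below 0. Slc5a1 (the sodium-coupled transporter SGLT1) was at 0.857 ± 0.136 CPM in Epac1-PLN and 1.62 ± 0.402 CPM in wildtype (adjusted p = 0.135), and Ogt (O-GlcNAc transferase) at 112 ± 15.7 CPM in Epac1-PLN and 141 ± 10.5 CPM in wildtype (adjusted p = 0.162). Sord (sorbitol dehydrogenase) was at 288 ± 36.6 CPM in Epac1-PLN and 230 ± 15.5 CPM in wildtype (adjusted p = 0.138). Egln3, a prolyl hydroxylase that acts on hypoxia-inducible factors, was at 381 ± 78.7 CPM in Epac1-PLN and 286 ± 36.8 CPM in wildtype (adjusted p = 0.149). Of these 83 genes, 15 (18.1%) had an unadjusted p under 0.05, beside 12.2% of all tested genes. Between the sexes 1 was called, beside 0.34% of all tested genes: Pygl, liver glycogen phosphorylase, was lower in females by a log2 difference of -0.59 (adjusted p = 0.0325), a call lost in 7 of 17 alternatives, among them leaving out wildtype library 1 (log2 difference -0.50, adjusted p = 0.193).

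Promoter windows from RefSeq (GRCm38.p6, 250 bases before to 50 after each annotated start) were found for 35 of the 37 genes, with 1 to 4 windows a gene. Motifs were searched on both strands, and a gene was counted where any of its windows held the letters. ACGTG, the core that hypoxia-inducible factors recognise, was held by 19 of 35 genes (54.3%), against 29.5% of 9259 tested genes with a window and 21.8% of all 27025 genes with one. CACGTG, an E-box that contains the same letters, was held by 6 (17.1%), against 11.9% of tested genes and 8.09% of all. The GC box GGGCGG was held by 24 (68.6%), against 69.6% of tested genes and 38.2% of all. TATAAA was held by 2 (5.71%), against 8.74% and 15.7%, and the MEF2 site, bound by a muscle transcription factor family, by 2 (5.71%), against 2.38% and 3.7%. A match is a description of the letters and was not tested as a site.

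The phosphorylase promoters are shown because the ratio of this pair did not overlap between the genotypes, although the difference did not pass the adjusted threshold. The promoter of Pgam2 is shown because the gene was among the 4 most abundant and held the MEF2 site. Capitals mark ACGTG, which reads CACGT on the printed strand, in Pygb (chr2:150786546-150786845, +) and Pygm (chr19:6384158-6384457, +), and the MEF2 site in Pgam2 (chr11:5803747-5804046, -). Both phosphorylase windows hold ACGTG once and have a GC content of 60.7% and 58.7%.
Pygb: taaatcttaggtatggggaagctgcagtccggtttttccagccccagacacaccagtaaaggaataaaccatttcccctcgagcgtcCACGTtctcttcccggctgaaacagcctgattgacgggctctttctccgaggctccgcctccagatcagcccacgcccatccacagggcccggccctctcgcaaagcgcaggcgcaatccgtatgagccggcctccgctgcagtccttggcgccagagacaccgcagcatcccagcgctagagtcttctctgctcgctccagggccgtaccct
Pygm: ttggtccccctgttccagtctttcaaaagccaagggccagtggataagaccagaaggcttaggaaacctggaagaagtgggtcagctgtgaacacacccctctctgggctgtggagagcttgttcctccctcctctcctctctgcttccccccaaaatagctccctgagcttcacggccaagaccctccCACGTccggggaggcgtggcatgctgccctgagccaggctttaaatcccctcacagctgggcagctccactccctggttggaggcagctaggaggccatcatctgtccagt
Pgam2: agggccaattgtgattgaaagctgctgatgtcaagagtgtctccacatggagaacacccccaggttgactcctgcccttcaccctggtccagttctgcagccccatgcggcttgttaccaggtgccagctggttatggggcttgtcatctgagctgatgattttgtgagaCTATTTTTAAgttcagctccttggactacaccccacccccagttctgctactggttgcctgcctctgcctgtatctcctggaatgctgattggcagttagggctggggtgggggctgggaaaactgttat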

How the data were processed

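Raw counts per gene were deposited by the authors for the 10 libraries and are the values used here; their second table, of normalized values, was not used. Among the tools in the submitters' processing notes are the aligner STAR 2.3.0 and the counter HTSeq 0.5.4, with mm10 as the build. Their settings, the annotation version, the use of strand and the handling of reads that fit several genes are not stated in the sources, so reads of overlapping or antisense genes cannot be told apart. Per the labels' protocols, TruSeq RNA libraries of total RNA were run on a HiSeq2000.

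Genes were filtered with filterByExpr on genotype in edgeR 4.0.16 (R 4.3.3), which kept 12629 of 38355 genes and 36 of the 37 members. TMM-scaled counts were tested with edgeR's robust quasi-likelihood F test with sex and genotype as terms. Benjamini-Hochberg adjustment ran over all 12629 genes, and a call is an adjusted p under 0.05. Group values are mean ± SD over 5 libraries, and fold changes carry an SE and a 95% interval. The SE was taken as the absolute log2 fold change over the square root of the F statistic. The interval was the SE times a t quantile on either side. Exon lengths are the union of GENCODE M21 exons on GRCm38, and 30 of the 37 genes have the same coordinates there as in the deposited table. Isoform ratios used counts plus 0.5 and required a mean of at least 10 counts. The edgeR test was also run on simulated counts. Of genes simulated at an absolute log2 fold change of 0.5, 49% were called, and at 1, 86.9%. Of all calls in the simulation, 6.94% were false. Changed genes were drawn at random from all genes kept by the filter, and no sex difference was simulated. These rates are therefore not specific to the 37 genes, and changes smaller than 0.5 were not simulated.

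Alternatives were RLE and upper-quartile scaling, DESeq2 1.42.0, limma-voom (limma 3.58.1), other count filters, other covariates, females alone and each library left out. Values in every library are given for genes of the set and lists called by the main test, for the most abundant gene of each family and for the 8 members with the smallest genotype p. The members, pairs and lists were chosen with earlier results of these data known. No pair of libraries of a group was as close as sampling noise would make it (chi-square per degree of freedom 7.64 to 33.3). The libraries are labelled biological replicates, but the labels do not say how animals were housed or processed together. Counting precision is limited by depth, and the sources name no molecular identifiers.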

Additional observations from a re-analysis of the deposited data

Results flagged for a closer look

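In 5 of the 74 groups examined, a group being 1 gene in the 5 libraries of 1 genotype, the highest library stood further from the next than the 95% critical value of Dixon's test allows. Chance gives about 1 in 20 groups. Hk1 was at 330 CPM in wildtype library 3, with the next wildtype library at 271 CPM. Gapdh was at 30.3 CPM in the same library and at 23.3 CPM in the next. Slc16a1, the lactate carrier MCT1, was at 528 CPM in wildtype library 4, against 405 CPM in the next, although 2 Epac1-PLN libraries were higher still at 545 and 546 CPM. Gbe1, the branching enzyme, was at 126 CPM in that library and at 107 CPM in the next. Ugp2 was at 911 CPM in Epac1-PLN library 3 and at 785 CPM in the next of its group. None of these 5 genes was called between the genotypes with or without any 1 library.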

How the results depend on the processing

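No member was called between the genotypes in 18 of 19 alternatives. With no filter on low counts 1 was called, Phkg1 (log2 fold change 0.37, adjusted p = 0.0112), while that setting called 498 genes in all. The count of called genes over all 12629, 81 by the main test, was 265 with DESeq2, 37 with genotype alone, 2 with the replicate number as a block and 4 with females alone, and 14 to 103 when 1 library was left out. Between the sexes Pfkfb3 alone was called by DESeq2 (1 member) and with no filter (1 member), and 0 in the other 15 of 17 alternatives. The leading gene was the same in all 10 families under the 2 other length choices. The count of isoform pairs past the adjusted threshold was 0 in the 13 alternatives run for it, which says nothing about stability, since a single pair cannot pass in this design.

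Small fold changes changed sign. With females alone these were Slc2a8 (-0.0824), Slc2a12 (-0.0774), Pgam1 (-0.0224), Pgam2 (0.0252) and the log2 ratios Pfkfb3/Pfkfb2 (0.023) and Pgam1/Pgam2 (-0.0467). With upper-quartile scaling and with no filter Gpi1 became -0.0094 and -0.0056, and Aldoa -0.0141 and -0.0098. Pygm was 0.0001 with limma-voom and 0.0001 with the replicate block. When 1 library was left out, log2 values that changed sign ranged from -0.0236 to 0.0728 for Slc2a8, -0.11 to 0.0049 for Hk1, -0.0206 to 0.0396 for Gpi1, -0.244 to 0.0022 for Pfkfb1, -0.0185 to 0.213 for Pfkfb3, -0.0443 to 0.0324 for Aldoa, -0.154 to 0.0278 for Gapdh, -0.0992 to 0.0388 for Eno3, -0.0763 to 0.0097 for Ldhb and -0.0426 to 0.0483 for Pygm. The same held for the ratios Slc2a1/Slc2a4 (-0.0508 to 0.135), Pfkfb3/Pfkfb2 (-0.242 to 0.0845) and Eno1/Eno3 (-0.163 to 0.0327). The cause was not tested.

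Replicate numbers were not seen to pair the samples. Deviations of libraries with the same number correlated at 0.376, -0.299, 0.148, -0.224 and 0.0957. In all, 2 of 10 libraries matched their own number best, replicate 1 of each genotype. Replicates 2 and 5 join a male with a female, and so few values cannot exclude a pairing. The block therefore rests on numbers alone. Aldoc, Slc2a3, Slc16a3, Pgam1 and Pfkfb3 had the fewest counts. Shared sequence limits Gapdh, Pgk1, Eno1 and Pgam1 and, at smaller shares, others such as Pfkfb2 and Ldhb.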
